A study of Mus musculus with 6 samples.

Results

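The expression of 10 genes of the Wnt pathway was examined in cells sorted as pericytes from mouse skeletal muscle: the ligands Wnt5a, Wnt9a and Wnt2, the secreted inhibitors Sfrp1, Sfrp2, Sfrp4, Dkk2 and Dkk3, and the target genes Axin2 and Lef1. They were chosen by gene symbol among the 53715 genes of the deposited gene table, and all 10 were among the 26559 that passed the filter on low counts. The 10 genes and all gene lists below were chosen with earlier results of these data known. Their counts are therefore set beside the share of all tested genes as description only. The stimulated group was 3 male wild-type C57BL/6J mice, 14 weeks old, whose crural muscles went through 40 electrically driven contractions, 20 eccentric and 20 concentric, within about 10 minutes. Their gastrocnemius-soleus complexes were taken 3 hours later. The sham control group was 3 unstimulated males of the same strain, genotype and age. From both groups, cells positive for CD146 and negative for CD45 (found on leukocytes) and CD31 (found on endothelial cells) were sorted, and their total RNA was sequenced with a stranded kit for very low inputs. The stated group sizes give 1 mouse per library, and nothing in the labels describes sort purity.

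Wnt ligands are lipid-modified secreted proteins that bind Frizzled receptors. In the beta-catenin branch, a ligand held by Frizzled and the co-receptors Lrp5 or Lrp6 stops the destruction complex from degrading beta-catenin, which then acts with TCF/LEF factors on target genes. In the planar cell polarity branch, Frizzled and Ror or Ryk receptors act on the cytoskeleton without beta-catenin. Sfrp proteins bind the ligands, and most Dickkopf (Dkk) proteins bind the co-receptors, so both act outside the cell. In adult muscle these signals are studied mainly in satellite cells and in fibro-adipogenic progenitors, the interstitial stromal cells that release many of the ligands and inhibitors.

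The libraries held 17520338 to 23709220 estimated reads. Values below are CPM, read counts relative to a library size scaled by TMM, in the order of replicates 1, 2 and 3. The pericyte genes Pdgfrb, Cspg4 and Rgs5 were detected in every library, at 3.85 to 187 CPM in stimulated and 9.60 to 337 CPM in sham libraries. Pecam1, which encodes the CD31 that the gate excluded, was at 384 to 577 CPM in stimulated and 524 to 1277 CPM in sham libraries. The T cell gene Cd3e was at 80.8 to 87.3 CPM in stimulated and 5.90 to 46.1 CPM in sham libraries, and sham replicate 2 had the lowest value. RNA of other cell types was thus present beside that of pericytes, and in such bulk samples fewer cells of a type and less RNA per cell cannot be told apart.

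Lower values after stimulation were found for 7 of the 10 genes and higher values for 3. Wnt5a, Sfrp2, Sfrp4 and Dkk2 were lower in each stimulated library than in any sham library, Axin2 was higher in each, and the groups of the other five overlapped. Among all tested genes, 5.89% were lower without overlap and 6.12% higher without overlap (12% in either direction). The quasi-likelihood test of edgeR with Benjamini-Hochberg adjustment called 0 of the 10 genes and 0 of all 26559 (0%) at an adjusted p of 0.05. At an unadjusted p under 0.05 it had 4 of the genes lower, against 4.41% of all tested genes, and 1 higher, against 2.64% (7.05% in either direction, 1872 genes). The median log2 fold change of stimulated over sham was -0.51 over the 10 genes and -0.02 over all tested genes. DESeq2 called 227 genes, 1.14% of the 19835 to which it gave an adjusted p, and Wnt5a and Sfrp2 were among them, while limma voom called 0.

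**Figure D1:**
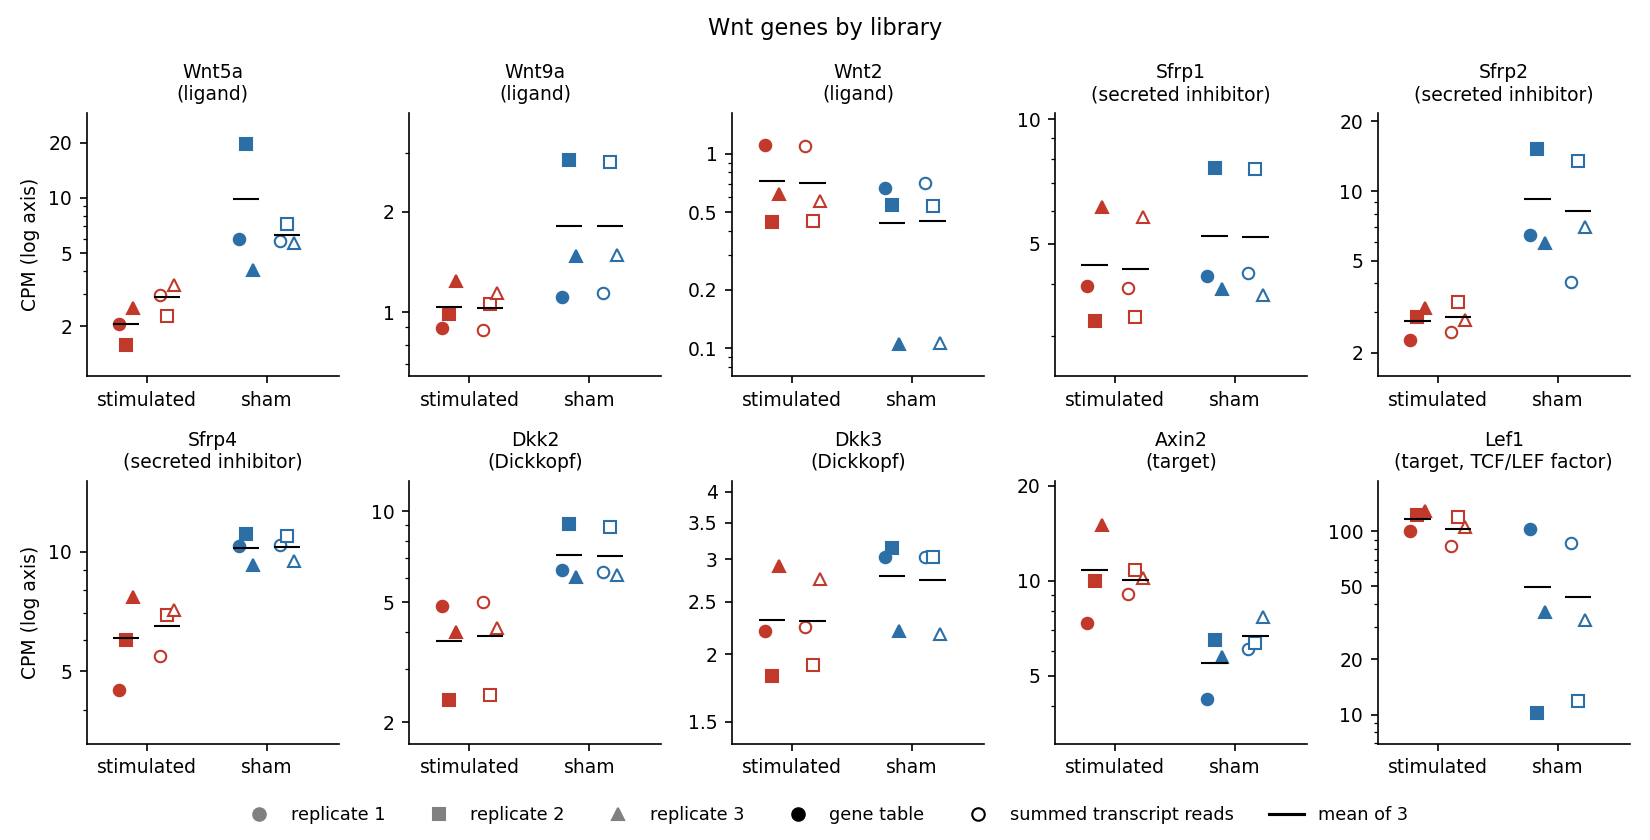
Level of the 10 Wnt genes in each library, in CPM on log axes that differ between panels. Filled symbols are from the gene table and open symbols from summed transcript reads, red for stimulated and blue for sham, symbol shapes give the replicate number and lines the mean of 3; Wnt5a, Sfrp2, Sfrp4 and Dkk2 lie lower without overlap after stimulation and Axin2 higher.

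The gene table is scaled by transcript length, as the ratio of its values to TPM shows, so each gene was also measured by the plain sum of the reads assigned to its transcripts. With these sums, 7 of the 10 genes were again lower and 3 higher, and their median log2 fold change was -0.45. Groups did not overlap for 5 lower genes, against 6.03% of all tested genes, and for 1 higher gene, against 6.08% (12.1% in either direction). The fifth was Wnt9a. At an unadjusted p under 0.05 there were 4 lower, against 5% of all tested genes, and 1 higher, against 2.49% (7.49% in either direction). At the adjusted threshold edgeR called 1 of 26548 genes (0.00377%), which was none of the 10.

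**Figure D2:**
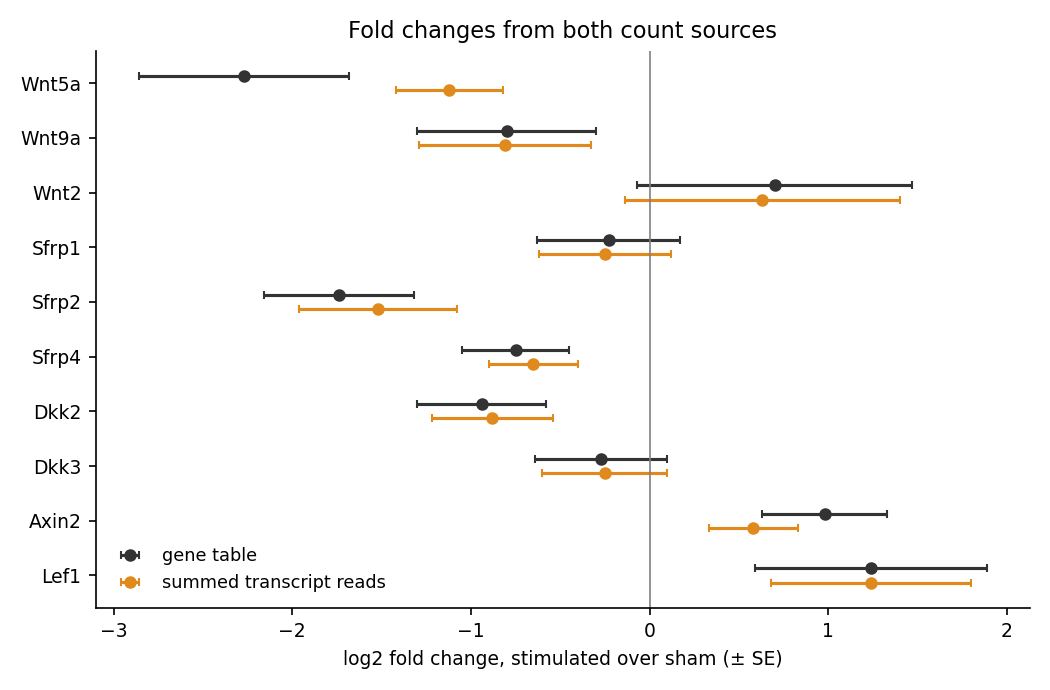
Log2 fold change of stimulated over sham for each gene, with its standard error, from the gene table (dark) and from summed transcript reads (orange). The sources differ most for Wnt5a, at -2.27 in the gene table and -1.12 in summed reads.

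Wnt5a, a ligand known mainly for signalling without beta-catenin (ENSMUSG00000021994.15, GRCm38 chromosome 14, 28504750 to 28527448, plus strand), had 2.05, 1.58 and 2.52 CPM in stimulated libraries, against 6.00, 19.7 and 4.04 CPM in sham libraries. Sham replicate 2 was far above the other sham libraries, and the lowest sham library was still above the highest stimulated one. The mean was 2.05 ± 0.471 CPM in stimulated and 9.90 ± 8.51 CPM in sham libraries (SD, n = 3 each), 4.81-fold lower. Its log2 fold change was -2.27 (SE 0.59, adjusted p = 0.482 by edgeR's quasi-likelihood test). DESeq2 gave -2.22 (SE 0.57, adjusted p = 0.01535).

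Summed reads gave a smaller difference for Wnt5a. They came to 2.97, 2.27 and 3.37 CPM in stimulated, against 5.84, 7.25 and 5.68 CPM in sham libraries, with no overlap and with the sham libraries close together. The log2 fold change from these sums was -1.12 (SE 0.30, adjusted p = 0.464 by edgeR's quasi-likelihood test). In sham replicate 2, annotated processed transcripts of Wnt5a held 7.53% of the gene's reads and 77.1% of its TPM. One of them, 337 bases long, had 6.47 estimated reads there and 0 in each other library, and its effective length of 149 bases set the weight of those reads. The long protein-coding transcript of 7010 bases had 57.4, 45.4 and 74.6 reads in stimulated and 130, 124 and 107 reads in sham libraries, so its groups did not overlap either. Without sham replicate 2 the gene table's log2 fold change was -1.28 (SE 0.40). The antisense gene Gm2670 overlaps Wnt5a, and the strand setting used for counting is not given in the sources used here.

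Wnt9a, a ligand known from joint formation (ENSMUSG00000000126.11, chromosome 11, 59306928 to 59333552, plus strand), had 0.896, 0.986 and 1.24 CPM in stimulated and 1.11, 2.87 and 1.47 CPM in sham libraries. The stimulated library with the highest value lay above the lowest sham library. Its log2 fold change was -0.80 (SE 0.50, adjusted p = 0.845 by edgeR's quasi-likelihood test), and -0.30 (SE 0.54) without sham replicate 2. With summed reads, 17, 21 and 26 reads in stimulated against 26, 52 and 28 in sham libraries, the scaled groups were separated only narrowly, at up to 1.138 CPM in stimulated and from 1.142 CPM in sham.

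Wnt2, a ligand of the beta-catenin branch (ENSMUSG00000010797.6, chromosome 6, 17988940 to 18030585, minus strand), was close to the filter, with 21, 9 and 13 summed reads in stimulated and 16, 10 and 2 reads in sham libraries. That is 1.11, 0.444 and 0.619 CPM in stimulated and 0.666, 0.542 and 0.105 CPM in sham libraries in the gene table. The groups overlapped, and sham replicate 3 was the lowest. The log2 fold change of 0.70 had an SE of 0.77 (adjusted p = 0.964 by edgeR's quasi-likelihood test), and the difference was smaller than its SE.

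Among the inhibitors, Sfrp2 differed most between the groups. The Sfrp proteins carry a domain like the ligand-binding part of Frizzled. Sfrp2 (ENSMUSG00000027996.13, chromosome 3, 83766321 to 83774316, plus strand) had 2.27, 2.86 and 3.14 CPM in stimulated, against 6.49, 15.2 and 5.99 CPM in sham libraries. The stimulated libraries lay close together, and sham replicate 2 was again the highest. The mean was 2.75 ± 0.446 CPM in stimulated and 9.23 ± 5.19 CPM in sham libraries (SD, n = 3 each), 3.34-fold lower. Its log2 fold change was -1.74 (SE 0.42, adjusted p = 0.434 by edgeR's quasi-likelihood test), and DESeq2 gave -1.70 (SE 0.45, adjusted p = 0.0217). Summed reads, 2.45, 3.32 and 2.76 CPM in stimulated and 4.04, 13.5 and 7.004 CPM in sham libraries, gave -1.52 (SE 0.44) with no overlap. Without sham replicate 2 the gene table gave -1.17 (SE 0.35). The antisense gene Gm26771 overlaps the end of Sfrp2.

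Sfrp4, another ligand-binding inhibitor (ENSMUSG00000021319.7, chromosome 13, 19623104 to 19632994, plus strand), had 4.48, 6.01 and 7.69 CPM in stimulated, against 10.3, 11.1 and 9.24 CPM in sham libraries. Here sham replicate 2 stood with the other sham libraries, which spread less than the stimulated ones. The log2 fold change was -0.75 (SE 0.30, adjusted p = 0.668 by edgeR's quasi-likelihood test), and -0.65 (SE 0.25) from summed reads. Reads were divided among its protein-coding transcripts in unequal ways. The transcript of 1764 bases had 0, 38.4 and 79.5 estimated reads in stimulated and 170, 99.1 and 85.4 in sham libraries, while the transcript of 4049 bases had 95.2, 95.0 and 67.1 in stimulated and 65.6, 92.6 and 88.3 in sham libraries. The first of these did not overlap between groups and the second did. They share sequence, so their split is an estimate and was not tested.

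Sfrp1, also of the Sfrp family (ENSMUSG00000031548.7, chromosome 8, 23411502 to 23449632, plus strand), had 3.95, 3.25 and 6.14 CPM in stimulated and 4.18, 7.64 and 3.89 CPM in sham libraries. The groups overlapped, with a high library in each. A log2 fold change of -0.23 (SE 0.40, adjusted p = 0.983 by edgeR's quasi-likelihood test) turned to 0.15 (SE 0.40) without sham replicate 2, so it has no direction.

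Dkk2, a Dickkopf protein that binds the Lrp5 and Lrp6 co-receptors (ENSMUSG00000028031.6, chromosome 3, 132085292 to 132180304, plus strand), had 4.85, 2.37 and 3.98 CPM in stimulated, against 6.40, 9.10 and 6.04 CPM in sham libraries. All stimulated libraries were below all sham libraries, and stimulated replicate 2 was the lowest. The mean was 3.73 ± 1.26 CPM in stimulated and 7.18 ± 1.67 CPM in sham libraries (SD, n = 3 each), 1.92-fold lower. Its log2 fold change was -0.94 (SE 0.36, adjusted p = 0.666 by edgeR's quasi-likelihood test), and -0.88 (SE 0.34) from summed reads. The files list 1 transcript of Dkk2, so no split between transcripts enters its value.

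Dkk3, a divergent member of that family (ENSMUSG00000030772.6, chromosome 7, 112116017 to 112159057, minus strand), had 2.21, 1.82 and 2.92 CPM in stimulated and 3.02, 3.14 and 2.21 CPM in sham libraries. The groups overlapped. The log2 fold change was -0.27 (SE 0.37, adjusted p = 0.971 by edgeR's quasi-likelihood test), less than its standard error.

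The promoters of Sfrp2 and Dkk2 are shown as those of inhibitors that were lower without overlap. They come from RefSeq (GRCm38.p6) and run from 250 bases before to 50 bases from the annotated start site, 300 in all. Capitals mark the 50 bases from the start site.
Sfrp2 (chr3:83766071-83766370, plus strand): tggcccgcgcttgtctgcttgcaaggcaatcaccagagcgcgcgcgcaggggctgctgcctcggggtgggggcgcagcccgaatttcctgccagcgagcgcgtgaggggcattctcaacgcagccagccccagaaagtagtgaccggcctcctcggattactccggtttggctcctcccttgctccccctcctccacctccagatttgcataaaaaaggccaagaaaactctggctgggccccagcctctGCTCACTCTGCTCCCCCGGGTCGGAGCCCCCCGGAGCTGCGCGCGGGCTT
Dkk2 (chr3:132085042-132085341, plus strand): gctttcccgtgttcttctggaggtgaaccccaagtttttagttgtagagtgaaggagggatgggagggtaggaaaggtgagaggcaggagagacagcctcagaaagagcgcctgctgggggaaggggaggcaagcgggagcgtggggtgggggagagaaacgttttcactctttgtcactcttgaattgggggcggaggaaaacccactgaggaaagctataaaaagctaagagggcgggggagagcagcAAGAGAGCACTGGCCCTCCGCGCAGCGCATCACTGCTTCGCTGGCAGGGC
The Sfrp2 window has a GC content of 66.0% and 22 CpG dinucleotides, and the Dkk2 window 57.7% and 11, where the medians of 32817 RefSeq promoters of that length were 52.7% and 7.

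Markers of stromal and endothelial cells went the same way as the lower Wnt genes. All 10 listed markers of fibro-adipogenic progenitors were lower after stimulation, 1 of them at an unadjusted p under 0.05 against 4.41% of all tested genes, and their summed level was 1061 to 2615 CPM in stimulated and 1636 to 3447 CPM in sham libraries, which overlapped. Their defining genes Pdgfra, Dcn and Lum were detected in every library. All 10 endothelial markers were lower, 8 of them at an unadjusted p under 0.05 against the same 4.41%, and their sum was 1930 to 2989 CPM in stimulated and 3212 to 8127 CPM in sham libraries, without overlap. Of 10 pericyte markers, 9 were lower, 2 of them at an unadjusted p under 0.05 against the same 4.41%. Their sum was 182 to 411 CPM in stimulated and 333 to 697 CPM in sham libraries, which overlapped. No marker of these lists was at 0 in any library. Sham replicate 2 had the highest sum of all 3 lists and the highest Wnt5a, Sfrp2, Sfrp4 and Dkk2. The part of these cell types in the Wnt5a, Sfrp2, Sfrp4 and Dkk2 differences was not tested.

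**Figure D3:**
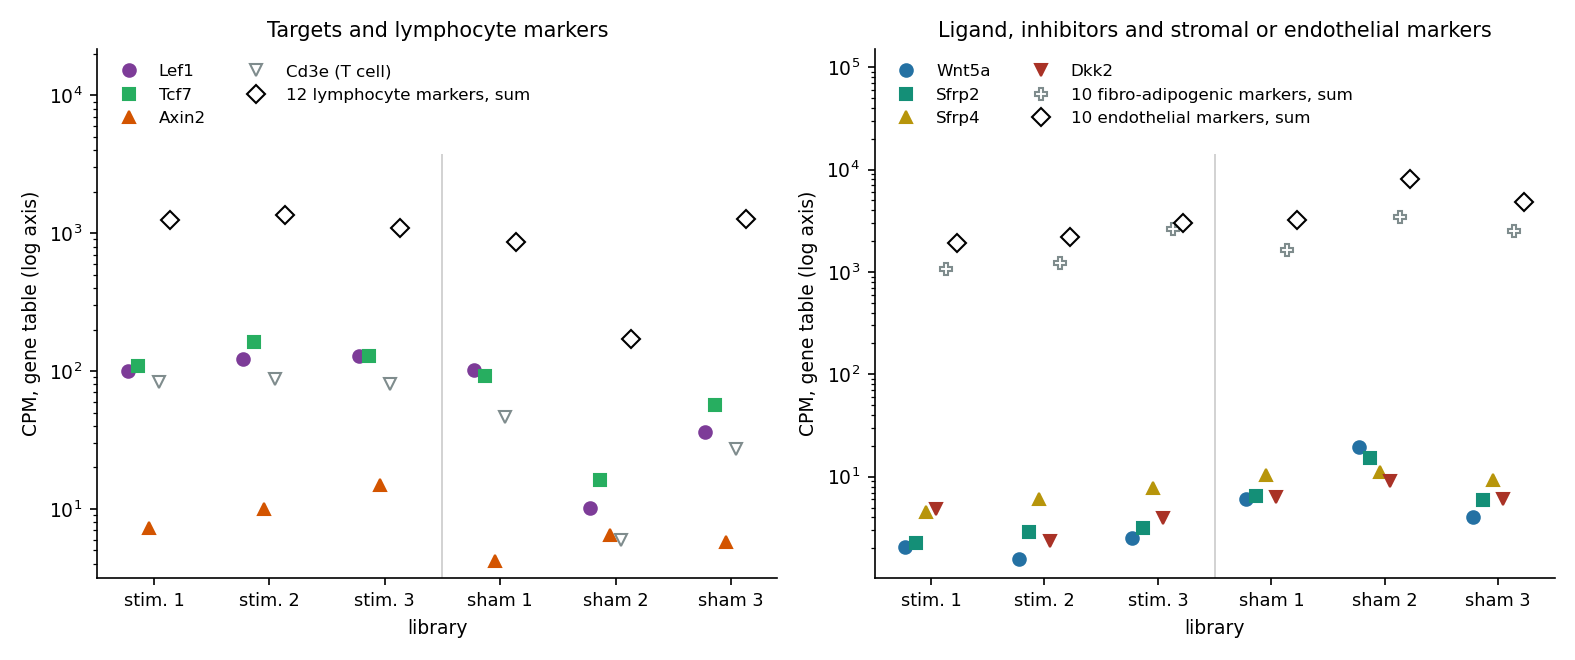
Levels in each library from the gene table, in CPM on log axes: at left Lef1, Tcf7, Axin2 and lymphocyte markers, at right Wnt5a, Sfrp2, Sfrp4, Dkk2 and sums of stromal and endothelial markers. Lef1 and Tcf7 have their lowest values in sham replicate 2 together with the lymphocyte sum (171 CPM), and Axin2 does not.

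Axin2, a scaffold of the destruction complex that beta-catenin signalling itself induces (ENSMUSG00000000142.15, chromosome 11, 108920349 to 108950783, plus strand), was the target gene that was higher without overlap. It had 7.32, 10.0 and 14.98 CPM in stimulated, against 4.22, 6.50 and 5.72 CPM in sham libraries. The mean was 10.8 ± 3.89 CPM in stimulated and 5.48 ± 1.16 CPM in sham libraries (SD, n = 3 each), 1.97-fold higher. Its log2 fold change was 0.98 (SE 0.35, adjusted p = 0.632 by edgeR's quasi-likelihood test). Summed reads spread less, at 9.07, 10.8 and 10.2 CPM in stimulated and 6.06, 6.33 and 7.69 CPM in sham libraries, and gave 0.58 (SE 0.25), again without overlap. Leaving out stimulated replicate 3, the highest library, gave 0.66 (SE 0.37) from the gene table. The coding transcript of 4260 bases had 131.9, 162.6 and 100.8 estimated reads in stimulated and 113.5, 43.7 and 105.5 in sham libraries, which overlapped. Another, of 477 bases, had 6.36 reads and 19.7% of the Axin2 TPM in stimulated replicate 3, and 0 reads in each other library. The split between transcripts is an estimate and was not tested. The antisense gene Gm11670 lies within Axin2. Its promoter is shown as that of the standard feedback target of the pathway, from the same source and with the same capitals.
Axin2 (chr11:108920099-108920398, plus strand): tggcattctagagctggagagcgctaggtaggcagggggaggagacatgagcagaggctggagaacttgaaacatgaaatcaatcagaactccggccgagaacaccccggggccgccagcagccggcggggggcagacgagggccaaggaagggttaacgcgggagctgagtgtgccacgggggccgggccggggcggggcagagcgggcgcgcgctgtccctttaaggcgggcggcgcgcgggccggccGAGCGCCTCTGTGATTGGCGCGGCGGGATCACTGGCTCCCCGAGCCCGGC
This window has a GC content of 70.0% and 31 CpG dinucleotides.

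Lef1, one of the TCF/LEF factors through which beta-catenin acts and itself a target gene (ENSMUSG00000027985.14, chromosome 3, 131110471 to 131224356, plus strand), had 101, 123 and 128 CPM in stimulated and 102.5, 10.2 and 36.1 CPM in sham libraries. The stimulated libraries lay close together, whereas sham replicate 1 lay among them and the other sham libraries were lower. The mean was 117 ± 14.6 CPM in stimulated and 49.6 ± 47.6 CPM in sham libraries (SD, n = 3 each). The log2 fold change was 1.24 (SE 0.65, adjusted p = 0.771 by edgeR's quasi-likelihood test), and 1.24 (SE 0.56) from summed reads. It was 0.78 (SE 0.40) without sham replicate 2 and 2.33 (SE 0.52) without sham replicate 1, so the size of the difference rests on which sham library is kept. Gm43352, an antisense gene, and Gm42449 overlap Lef1.

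Lef1 is also a gene of T cells, and lymphocyte markers were also higher after stimulation. All 12 listed markers were higher, 6 of them at an unadjusted p under 0.05 against 2.64% of all tested genes, and none was at 0 in any library. Their summed level was 1092 to 1347 CPM in stimulated and 171 to 1262 CPM in sham libraries, and sham replicate 2 had the lowest sum. The defining gene Cd3e had 83.0, 87.3 and 80.8 CPM in stimulated and 46.1, 5.90 and 27.4 CPM in sham libraries, which places the sham libraries in the same order as Lef1. Neutrophil markers were higher in 7 of 7, with sums of 112 to 178 CPM in stimulated and 46.2 to 60.9 CPM in sham libraries. The part of lymphocytes and neutrophils in the Lef1 and Axin2 differences was not tested. Of the further marker lists, smooth muscle genes were lower in 7 of 7 and macrophage and monocyte genes in 6 of 8 table rows. Tenocyte genes were lower in 4 of 5. Myofibre genes were higher in 7 of 7, satellite cell genes in 5 of 5 and glial genes in 4 of 6. Stimulated replicate 3 had the highest sum of each of these higher lists. The myofibre sum was 41.8, 41 and 145 CPM in stimulated and 23.3, 39.9 and 41.4 CPM in sham libraries. Pax7 of the satellite cell list had 0.316, 0.394 and 9.19 CPM in stimulated and 4.84, 2.38 and 2.05 CPM in sham libraries. With summed reads, 6 of 7 myofibre, 4 of 5 satellite cell and 4 of 6 glial genes were higher. So were 6 of 7 neutrophil genes and all 12 lymphocyte genes, 5 of the 12 at an unadjusted p under 0.05 against 2.49% of all tested genes. Lower with these sums were 6 of 7 smooth muscle genes, 5 of 8 macrophage and monocyte rows and 4 of 5 tenocyte genes.

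Compared per length, in TPM, Lef1 had the highest level of the 10 genes in 5 of 6 libraries. Its TPM was 2.09, 2.11 and 2.501 in stimulated and 2.86, 0.328 and 0.586 in sham libraries. In sham replicate 2 its rank was 3, after Sfrp2 at 0.497 TPM and Sfrp4 at 0.361 TPM. Retained-intron transcripts held 32.6 to 52.3% of the Lef1 TPM. One of them, 345 bases long, held 18.6 to 28.9% in the 5 other libraries, from 9.32 to 40.8 estimated reads. Protein-coding Lef1 transcripts alone had 0.952, 1.03 and 1.17 TPM in stimulated and 1.16, 0.221 and 0.300 TPM in sham libraries. In those 5 libraries this was still above each other gene of the 10. Sfrp4 had rank 2 or 3 in every library, at 0.0951, 0.105 and 0.153 TPM in stimulated and 0.2925, 0.361 and 0.152 TPM in sham libraries. Wnt9a and Wnt2 held the last places in every library, at 0.00141 to 0.0414 TPM, and their order changed between libraries. In each library, 10 other genes took 75.6 to 83.8% of all TPM, which leaves small TPM values for the rest.

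Lef1 transcripts begin at separate annotated starts, which give different proteins. In humans the product of the downstream promoter lacks the region that binds beta-catenin and can oppose the full-length factor. In GENCODE the mouse transcripts Lef1-201, Lef1-202 and Lef1-204 start at 131110471, with coding lengths of 1191, 1107 and 1152 bases. Lef1-203 starts 2326 bases downstream, at 131112797, and has a coding length of 993 bases, 198 fewer than Lef1-201. RefSeq places start sites at 131110323 and 131112791, 2468 bases apart, and further ones at 131110297 and 131156294. The windows at 131110323 and 131112791 are shown because the reads divide between upstream and downstream transcripts. The upstream window ends at 131110372, before the GENCODE start of the upstream transcripts at 131110471. Capitals again mark the 50 bases from the RefSeq start site.
Lef1 upstream start (chr3:131110073-131110372, plus strand): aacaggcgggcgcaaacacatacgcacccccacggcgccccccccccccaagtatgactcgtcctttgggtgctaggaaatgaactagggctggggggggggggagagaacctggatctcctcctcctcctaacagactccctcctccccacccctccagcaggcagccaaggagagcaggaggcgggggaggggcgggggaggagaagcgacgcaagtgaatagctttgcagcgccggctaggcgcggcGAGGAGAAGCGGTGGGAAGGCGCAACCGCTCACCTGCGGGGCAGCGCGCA
Lef1 downstream start (chr3:131112541-131112840, plus strand): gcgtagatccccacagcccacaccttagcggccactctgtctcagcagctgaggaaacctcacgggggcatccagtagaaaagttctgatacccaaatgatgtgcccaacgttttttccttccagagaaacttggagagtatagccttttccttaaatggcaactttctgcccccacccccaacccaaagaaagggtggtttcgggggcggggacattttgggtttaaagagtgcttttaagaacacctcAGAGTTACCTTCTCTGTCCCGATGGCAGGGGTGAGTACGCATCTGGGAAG
The upstream window has a GC content of 67.3% and 21 CpG dinucleotides, and the downstream window 51.7% and 8.

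Most Lef1 reads were assigned to transcripts of the downstream start in every library. Their share was 77.3, 67.7 and 71.2% in stimulated and 72.7, 86.1 and 73.2% in sham libraries, so the groups overlapped. Their level from summed reads was 64.5, 80.7 and 75.3 CPM in stimulated and 62.5, 10.2 and 24.0 CPM in sham libraries. The upstream transcripts had 16.2, 33.1 and 26.3 CPM in stimulated and 18.1, 1.64 and 8.28 CPM in sham libraries. Levels from both starts thus followed the same order of sham libraries, with sham replicate 2 the lowest. The downstream class holds Lef1-203 and a pair of retained-intron transcripts, and all retained-intron transcripts together took 33.2, 28.2 and 27.6% of Lef1 reads in stimulated and 35.7, 33.9 and 25.9% in sham libraries. Because the transcripts share most exons, the shares are estimates of the authors' quantification, and the difference in share between groups was not tested.

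**Figure D4:**
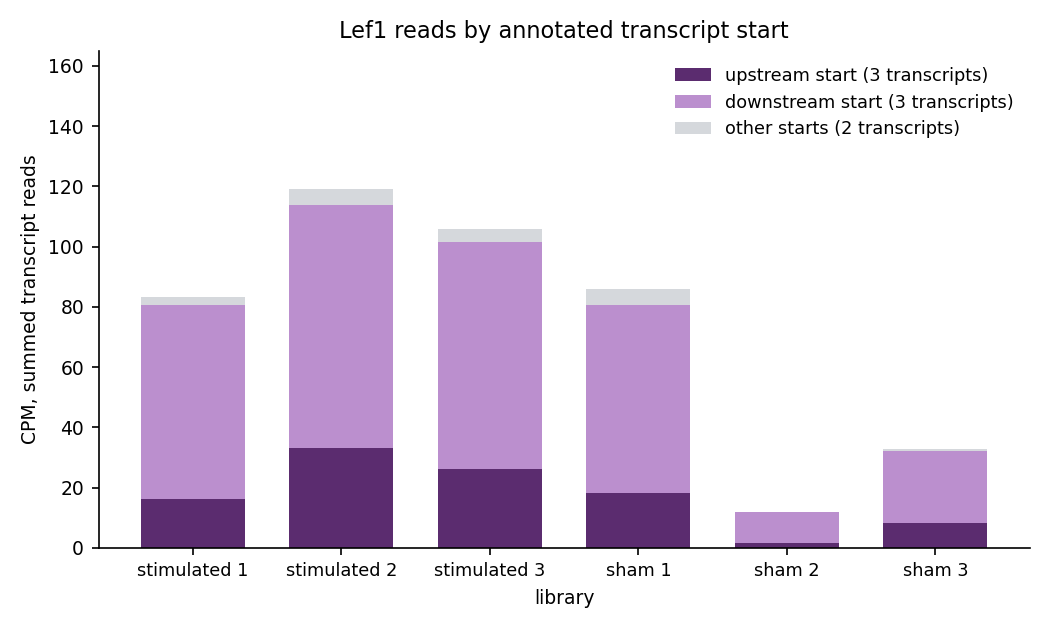
Summed reads of Lef1 in CPM per library, stacked by annotated start: upstream (Lef1-201, Lef1-202 and Lef1-204), downstream (Lef1-203 and retained-intron transcripts) and other starts. Downstream transcripts take 67.7 to 77.3% of the reads in stimulated and 72.7 to 86.1% in sham libraries.

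Of the 10 genes, 6 have entries in the RefSeq promoter table, with 9 windows in all: Sfrp2, Lef1, Dkk2, Wnt2, Wnt9a and Axin2. The letters CTTTGA, the core of the sequence that TCF/LEF factors recognise, were searched on both strands (TCAAAG on the other) and occur in 16.0% of the 32817 promoters. Of the 9 windows, 1 held them. It was a Lef1 window further into the gene, at chr3:131156044-131156343, with a match starting 180 and another starting 120 bases before the start site. The windows shown above hold no such match, which says only that these letters are not within them.

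The rest of the pathway was described with 9 lists of other Wnt genes. Of 99 listed genes in the table, 88 passed the filter, and 32 of them were higher and 56 lower after stimulation, with a median log2 fold change of -0.18 against -0.02 over all tested genes. edgeR's adjusted p passed the threshold for 0 of them. At an unadjusted p under 0.05 there were 3 higher and 12 lower, 17% of the 88 against 7.05% of all tested genes. That count was 8 with sham replicate 2 left out, 7 with stimulated replicate 1 left out and 5 with stimulated replicate 2 left out, and the share of all tested genes at that p was also lower in these fits, at 3.93 to 3.97%. Without each other library the count was 14 to 19, against 6.58 to 11.4% of all tested genes. With summed reads, 18 of 86 reached an unadjusted p under 0.05, 3 of them higher and 15 lower, against 7.49% of all tested genes.

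**Figure D5:**
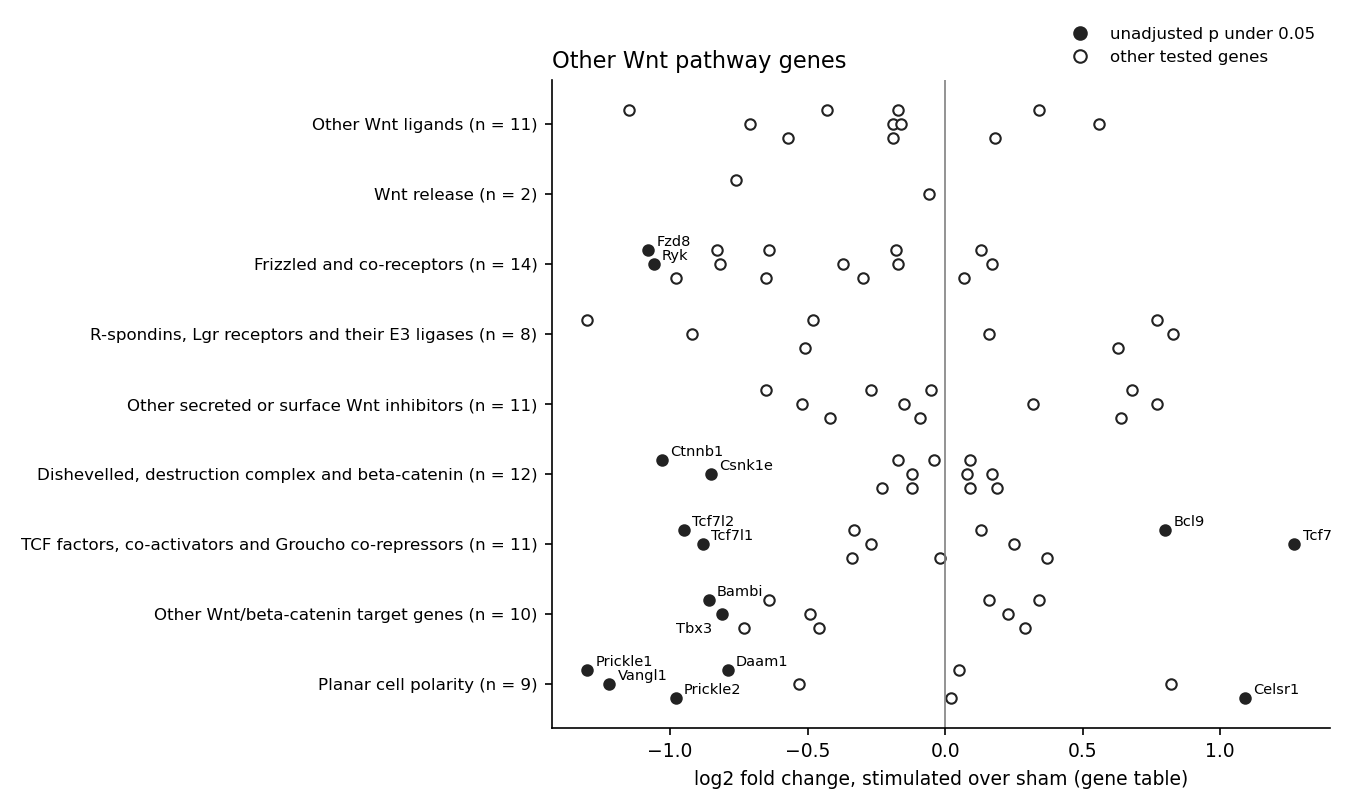
Log2 fold change of stimulated over sham from the gene table for each tested gene of the 9 lists of other Wnt genes. Filled points had an unadjusted p under 0.05 and are named; Tcf7, Celsr1 and Bcl9 are the 3 higher ones, and the 12 lower ones lie between -1.30 and -0.79.

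Other ligands gave no gene at an unadjusted p under 0.05. Of 11 tested, 3 were higher and 8 lower, and Wnt6 had the smallest p with a log2 fold change of -1.15 (SE 0.75). Wls, the carrier that brings Wnt proteins to the cell surface, had 20.0, 21.6 and 21.4 CPM in stimulated and 18.5, 24.5 and 22.5 CPM in sham libraries in the gene table, which overlapped. Summed reads gave 18.1, 16.3 and 20.9 CPM in stimulated and 21.75, 24.7 and 21.65 CPM in sham libraries, lower without overlap, with a log2 fold change of -0.30 (SE 0.21). Of 11 other inhibitors, 4 were higher and 7 lower, and none reached an unadjusted p under 0.05. Dkk1 was at 3.32, 3.30 and 2.74 CPM in stimulated and 2.62, 0.975 and 2.21 CPM in sham libraries, and so was higher without overlap, in contrast to the order seen for Dkk2. From summed reads the Dkk1 groups overlapped, with a log2 fold change of 0.69 (SE 0.42) against 0.68 (SE 0.43) from the gene table.

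Receptors were mostly lower: 11 of 14 Frizzled and co-receptor genes, with a median log2 fold change of -0.50. Ryk, a receptor for Wnt5a among other ligands, had 6.69, 7.49 and 11.6 CPM in stimulated, against 19.3, 21.6 and 13.1 CPM in sham libraries. That is a log2 fold change of -1.06 (SE 0.32) from the gene table and -0.79 (SE 0.36) from summed reads, in which the groups overlapped. Fzd8 had -1.08 (SE 0.44) and -1.18 (SE 0.40) from these sources. Fzd2, Lrp5 and Fzd6 reached an unadjusted p under 0.05 only with summed reads, at -1.05 (SE 0.42), -0.82 (SE 0.33) and -1.01 (SE 0.31). Rnf43 and Znrf3, ligases that remove Frizzled from the surface and are also induced by beta-catenin signalling, were at 0.83 (SE 0.39) and 0.63 (SE 0.32), and the groups of both overlapped in the gene table. From summed reads both were higher without overlap, at 0.82 (SE 0.43) for Rnf43 and 0.59 (SE 0.25) for Znrf3, and Znrf3 reached an unadjusted p under 0.05.

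Inside the cell, Ctnnb1, which encodes beta-catenin, had 184, 177 and 242 CPM in stimulated, against 264, 593 and 372 CPM in sham libraries. The groups did not overlap, with sham replicate 2 highest, and the log2 fold change was -1.03 (SE 0.34, adjusted p = 0.597 by edgeR's quasi-likelihood test). Of 12 destruction complex and Dishevelled genes, 5 were higher and 7 lower. Axin1, the constitutive counterpart of Axin2, had 40.5, 58.3 and 43.8 CPM in stimulated and 38.8, 35.2 and 60.2 CPM in sham libraries, which overlapped.

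The TCF/LEF factors did not share a direction. Tcf7, which like Lef1 is a factor of T cells, had 108.5, 162 and 128.5 CPM in stimulated, against 92.2, 16.2 and 56.6 CPM in sham libraries. Its groups did not overlap, and its sham libraries followed the order of Lef1. The log2 fold change of Tcf7 was 1.27 (SE 0.52, adjusted p = 0.677 by edgeR's quasi-likelihood test). Tcf7l1 and Tcf7l2, the factors of many non-lymphoid tissues, were at -0.88 (SE 0.34) and -0.95 (SE 0.39) in the gene table, and at -0.86 (SE 0.29) and -0.51 (SE 0.33) in summed reads. Bcl9, a co-activator bound to beta-catenin, was at 0.80 (SE 0.26) in the gene table and at 0.05 (SE 0.26) in summed reads, so its difference depended on the length scaling.

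The other listed target genes were mixed in direction. Of 10 tested, 4 were higher and 6 lower, and with summed reads 2 were higher and 8 lower. Bambi, a target that blocks TGF-beta receptors, had 8.64, 6.90 and 9.28 CPM in stimulated, against 11.4, 17.4 and 16.3 CPM in sham libraries, with no overlap and a log2 fold change of -0.86 (SE 0.28). Tbx3 was at -0.81 (SE 0.34) with overlap. Ccnd1 and Nkd1 were at -0.49 (SE 0.33) and -0.64 (SE 0.45).

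Planar cell polarity genes, which belong to the branch that Wnt5a is known for, were higher for 4 and lower for 5 of 9. At an unadjusted p under 0.05 there were 5 (1 higher and 4 lower), against 7.05% of all tested genes. Prickle1 had 14.5, 20.6 and 27.5 CPM in stimulated, against 33.8, 77.1 and 42.9 CPM in sham libraries, a log2 fold change of -1.30 (SE 0.37). Vangl1, Prickle2 and Daam1 were at -1.22 (SE 0.43), -0.98 (SE 0.33) and -0.79 (SE 0.30). Celsr1 went the other way, with 38.4, 12.6 and 16.4 CPM in stimulated and 14.1, 6.34 and 11.2 CPM in sham libraries, which overlapped, a log2 fold change of 1.09 (SE 0.46). Summed reads of Celsr1 gave 20.5, 30.6 and 19.5 CPM in stimulated and 11.4, 7.90 and 15.2 CPM in sham libraries, higher without overlap, and a log2 fold change of 1.03 (SE 0.30). Sham replicate 2, which had the highest endothelial sum, also had the highest Prickle1, Prickle2, Vangl1 and Daam1 and the lowest Celsr1. The part of other cell types in these values was not tested.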

How the data were processed

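Total RNA was sequenced from 6 libraries, 3 stimulated and 3 sham, grouped and numbered by their titles. Tools and build listed in the submitters' processing notes are Salmon 0.8.2, Trimmomatic 0.36, bcl2fastq 2.17.1.14, edgeR, R 3.5.1 and GRCm38, without settings. The authors deposited estimated counts per gene and, per the file headers, TPM and estimated counts for 135181 transcripts. The gene values follow TPM times a gene and a library factor (within 1% in all 14096 genes above 0.1 TPM in every library), so reads on short transcripts weigh more; with summed reads, 284 of 26276 fold changes differed by over 1 (log2).

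Estimated counts were rounded and filtered (filterByExpr, minimum count 10, minimum total 15), scaled by TMM and tested in edgeR 4.0.16 under R 4.3.3 by its quasi-likelihood test with robust dispersion and Benjamini-Hochberg adjustment over all genes. The common biological coefficient of variation was 0.398. The SE is the absolute log2 fold change divided by the square root of F. Exact permutation of 3 against 3 cannot go below p = 0.1 and was not used. The test was run on simulated data with the same dispersion for all genes and with larger changes than most of the 10 genes had. This does not show how it performs at smaller changes. Pairs of replicates within each group differed by a chi-square per gene of 24.1 to 111, so none was treated as a repeat of another in its group. Pairs across groups were not compared in this way.

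The 10 genes and all lists were chosen with earlier results of these data known. Also named were up to 4 genes per pathway list by p and the first 3 markers of marker lists; Fzd6, Axin1 and Celsr1 were chosen after their values were seen. Positions are from GENCODE mouse release M21 (GRCm38), to which 99.8% of gene identifiers matched, and promoters from RefSeq (GRCm38.p6). Alternatives were DESeq2 1.42.0, limma voom (limma 3.58.1), RLE and total count scaling, no filter, 1 CPM in 3 libraries, summed reads, mitochondrial and ribosomal RNA genes left out, the replicate block, each library left out and an adjusted threshold of 0.1.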

Additional observations from a re-analysis of the deposited data

How the results depend on the processing

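The 10 genes kept their direction in all alternatives run, except Sfrp1, which turned to a log2 fold change of 0.15 without sham replicate 2. The number of all genes called was 227 with DESeq2, 3 with RLE size factors, 109 with no filter, 1 with summed transcript reads, 3 at an adjusted threshold of 0.1, and 0 to 1 with each library left out. Of the 10 genes, DESeq2 called 2, Wnt5a (log2 fold change -2.22) and Sfrp2 (-1.70), and the fit with no filter called 1, Wnt5a (-2.17, adjusted p = 0.0483 by edgeR); the adjusted p of Wnt5a was 0.01535 to 1 and that of Sfrp2 0.0217 to 1 over their alternatives. The cause was not tested. The number of the 10 at an unadjusted p under 0.05 was 3 to 5 with each library left out. It was 3 when sham replicate 2 or either of stimulated replicates 2 and 3 was left out. The share of all tested genes at that p was also lower then, at 3.95 to 6.58%, against 7.05% with all libraries kept. Over every fit with a library left out, that share ranged from 3.93 to 11.4%. The number of the other pathway genes at that p was 5 to 19 in these fits. Over all alternatives the log2 fold change of Wnt5a was -2.63 to -1.12, of Sfrp2 -1.96 to -1.17, of Sfrp4 -0.96 to -0.53, of Dkk2 -1.12 to -0.70, of Sfrp1 -0.54 to 0.15, of Axin2 0.58 to 1.24 and of Lef1 0.78 to 2.33. Wnt2 was left untested by the filter of 1 CPM in 3 libraries, and DESeq2 gave Wnt9a and Wnt2 no adjusted p. These ligands had 2 to 53 reads per library, which limits the precision of their values.

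Replicate numbers are shared by the groups, but deviations of same-numbered libraries correlated at 0.32, -0.16 and 0.13 and the labels give the numbers no meaning, so they were not taken as pairs. With the replicate block, 0 genes were called and 7 of the 10 genes were lower. Of the 10, 5 had an unadjusted p under 0.05, against 6.75% of all tested genes. These 5 were not the same as without the block: Lef1 (log2 fold change 1.79) was then among them and Dkk2 (-0.97) was not.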
